A study of Homo sapiens with 15 samples.

Results

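The expression of 10 genes of fibroblast growth factor (FGF) signalling was examined in HCC95 cells after knockdown of 4 transcription factors. They were the receptors FGFR1, FGFR2 and FGFR3, the secreted ligand carrier FGFBP1, and ETV4, ETV5, SPRY2, SPRY4, DUSP6 and SPRED1. They were chosen by name for their place in the pathway, with earlier results of these data known, and all 10 were found among the 61544 genes of the count table. HCC95 is an established line of human lung squamous cell carcinoma (LUSC) cells. Cells were given an siRNA, a short double-stranded RNA that directs cleavage of a matching mRNA, in 5 groups of 3 libraries each. The siRNAs siTP63b, siSOX2b, siKLF5b and siGRHL2a were aimed at TP63, SOX2, KLF5 and GRHL2, and siNC1 was the negative control. Each factor was knocked down with 1 siRNA in 1 cell line, so a factor and the particular siRNA cannot be told apart. The labels do not say whether the libraries of a group came from separate cultures, and the p-values measure only the spread between these libraries.

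FGFs are secreted proteins that bind receptor tyrosine kinases of the FGFR family at the cell surface together with heparan sulfate. The active receptor passes a signal through the adaptor FRS2, RAS and the kinases RAF and MEK to ERK, which drives proliferation in many epithelial and tumour cells. ERK activity induces the ETS transcription factors ETV4 and ETV5, and also inhibitors of its own pathway, among them SPRY proteins and DUSP6. SPRY and SPRED proteins act on the steps between receptor and RAF, and the phosphatase DUSP6 removes phosphate from ERK. The mRNA levels of ETV, SPRY and DUSP genes are commonly used as a readout of ERK activity, but protein and phosphorylation were not analysed here. FGFBP1 binds FGFs held in the extracellular matrix and carries them to their receptors.

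DUSP6 and FGFBP1 each passed the thresholds used below in 3 of the 7 comparisons between groups, more than any other member did. The 250 bases before their start sites are therefore shown, 5′ to 3′ on the strand of the gene, from RefSeq on GRCh38.p14. The DUSP6 window is chr12:89352502-89352751 on the minus strand, and the FGFBP1 window is chr4:15938741-15938990 on the minus strand. Capitals mark matches to short motifs of the factors studied here or of ERK-responsive factors.
DUSP6: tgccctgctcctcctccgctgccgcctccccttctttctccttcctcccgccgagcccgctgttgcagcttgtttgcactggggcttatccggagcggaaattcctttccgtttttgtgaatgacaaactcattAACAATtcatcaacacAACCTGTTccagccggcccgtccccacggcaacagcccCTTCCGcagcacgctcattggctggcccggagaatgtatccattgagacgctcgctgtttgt
FGFBP1: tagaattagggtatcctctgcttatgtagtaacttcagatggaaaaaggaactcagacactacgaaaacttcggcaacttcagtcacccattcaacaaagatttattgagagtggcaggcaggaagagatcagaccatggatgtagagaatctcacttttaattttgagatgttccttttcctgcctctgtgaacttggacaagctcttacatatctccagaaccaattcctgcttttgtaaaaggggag
The motifs searched, on both strands, were the ETS core CGGAAG, the AP-1 site TGANTCA, the Grainyhead site AACCNGTT, the SOX site AACAAT, the KLF site GGGNGTGG and, for p63, a pair of CATG cores 6 bases apart. The DUSP6 window held a SOX match at 116 to 111 bases before the start, a Grainyhead match at 100 to 93 bases and an ETS match, written in reverse as CTTCCG, at 62 to 57 bases, with no overlap between them. The FGFBP1 window held no match. Among all 35116 windows of the same length, 8.98% held the SOX motif, 1.49% the Grainyhead motif and 16.5% the ETS core. The shares were 6.57% for AP-1, 15.7% for KLF and 0.296% for the pair of CATG cores. Windows were found for 7 of the 10 members. A Grainyhead match also lay 112 to 105 bases before a second listed start of SPRY2, and KLF matches lay before FGFR3 and before 1 of the listed starts of FGFR2. These matches describe letters only.

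The libraries held between 15655495 and 34229063 counts. By their column names they form a set of 9 (siTP63b, siSOX2b and siGRHL2a) and a set of 6 (siNC1 and siKLF5b). Even numbers made up 66.1% to 69.0% of the values from 20 to 500 in the former and 49.7% to 50.7% in the latter. Such a share can arise where both reads of a pair are counted, and whether that was so here was not tested. With the counts of those 9 libraries halved, the number of members past the thresholds was the same in every comparison. Set and knockdown cannot be told apart in a comparison of the former 3 groups with siNC1, and the main comparisons were made within a set. In each group the targeted gene was below its level in siNC1: 72.5 against 113 CPM (counts scaled to a common library size) for KLF5, 363 against 682 for TP63, 8.97 against 73.3 for SOX2 and 91.3 against 135 for GRHL2. SOX2 was also low in siTP63b (29.6 CPM) and siGRHL2a (20.2 CPM), so these 3 groups share a low SOX2 level. Within the set of 9, GRHL2 was at 91.3 CPM in siGRHL2a, 100 CPM in siSOX2b and 117 CPM in siTP63b. The siSOX2b and siGRHL2a groups thus lay close to each other in GRHL2. The 8 squamous epithelial markers, which include the targeted genes TP63 and SOX2, ranged from 7.09 to 9491 CPM. The lowest value was that of SOX2 in a siSOX2b library. KRT14, which was not targeted, was at 22.2 to 24.6 CPM in siKLF5b. The 18 markers of leukocytes, endothelium, fibroblasts and lung alveolar epithelium stayed at or below 39.8 CPM, where CD68 was highest, so the ranges overlapped.

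Divided by the length of its exons, FGFBP1 had the highest level of the members in siNC1, at 290 CPM per kb. FGFR2 (8.28 CPM per kb), DUSP6 (7.71), SPRED1 (7.47), FGFR3 (6.23) and ETV4 (5.55) followed. The lowest on this scale were ETV5 (3.73), FGFR1 (2.92), SPRY2 (1.58) and SPRY4 (0.814). The table counts whole gene spans, introns included, so this order is approximate for genes with long introns. The members had at least 70 counts in every library. All later levels are in CPM, and every difference is a log2 fold change (log2FC) from one edgeR fit of all 15 libraries.

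**Figure D1:**
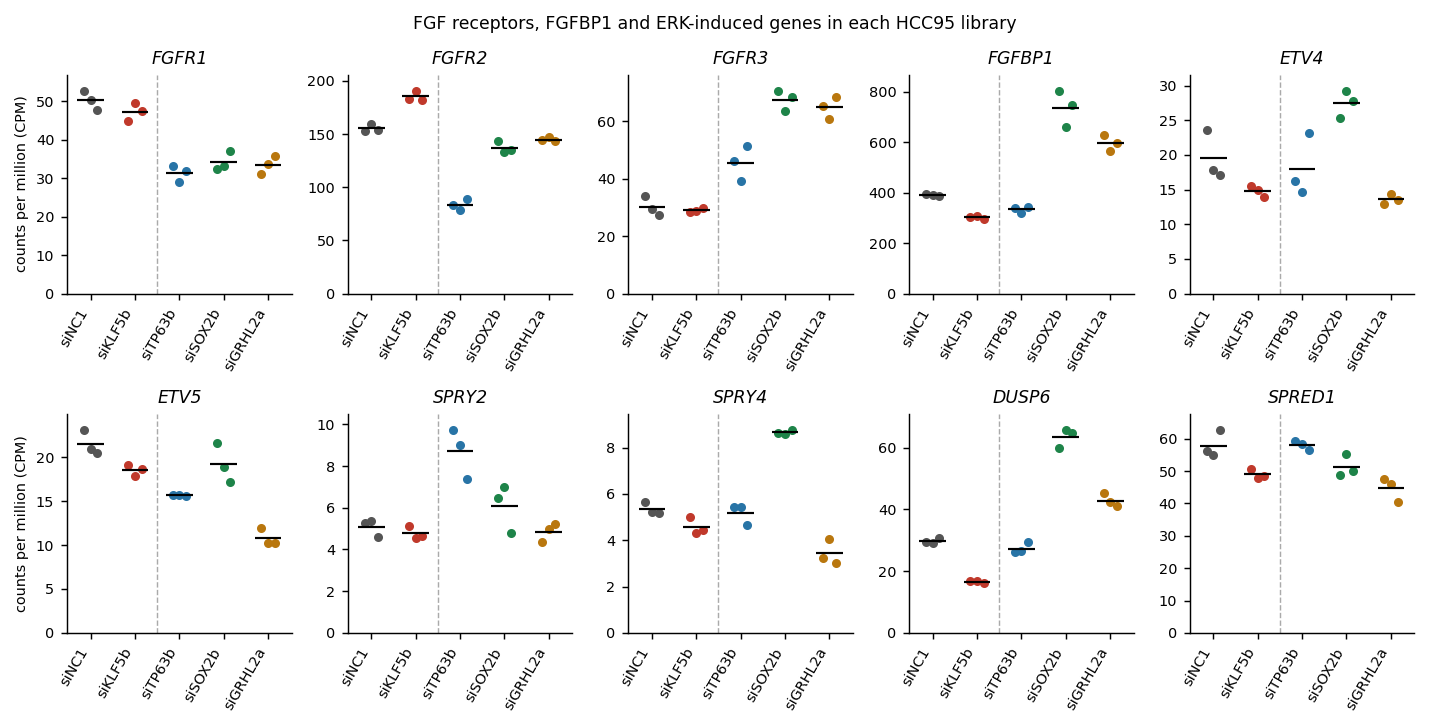
CPM of each of the 10 genes (vertical axes, starting at 0) in the 15 HCC95 libraries, by siRNA group. Points are libraries, horizontal bars are means of 3, and the dashed line parts the 2 column sets. DUSP6 lies lowest in siKLF5b (16.2 to 16.9 CPM) and highest in siSOX2b (59.8 to 65.7 CPM), and FGFR2 lies lowest in siTP63b (78.2 to 89.2 CPM).

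KLF5 is a zinc-finger factor of proliferating epithelia, and the comparison of siKLF5b with siNC1 asks how the pathway differs when it is reduced. DUSP6 fell with KLF5 knockdown. It was at 29.4, 29.1 and 30.7 CPM in siNC1 and at 16.8, 16.9 and 16.2 CPM in siKLF5b. The groups did not overlap, and the libraries of each lay close together. The log2FC was -0.84 (SE 0.075), with an adjusted p of 4.18e-10. Under 14 alternative settings the log2FC stayed between -0.86 and -0.82.

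Of the 10 members, 1 (DUSP6) was past both thresholds, which were 0.05 for the adjusted p and 0.75 for the size of the log2FC. Of all 25108 genes tested, 1.37% were past them as lower and 1.89% as higher. By the adjusted p alone, 4 members were lower and 1 was higher, beside 12.9% and 10.3% of all genes. Here and below, the shares of all genes include genes with far fewer counts than the members, so they are not matched for depth. The median log2FC was -0.22 over the members and -0.0097 over all genes.

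The other members differed less between siKLF5b and siNC1. FGFBP1 was at 395, 391 and 389 CPM in siNC1 and at 306, 306 and 296 CPM in siKLF5b (log2FC -0.37, SE 0.055, adjusted p = 4.69e-06). FGFR2, the receptor with the highest level, was on the other side: 153, 160 and 154 CPM in siNC1 and 183, 191 and 182 CPM in siKLF5b (log2FC 0.25, SE 0.049, adjusted p = 0.000232). Both genes had groups that did not overlap, with a difference below the log2FC threshold. SPRED1, an inhibitor that recruits the RAS-inactivating protein neurofibromin, was at 57.9 ± 4.2 CPM (SD, n = 3) in siNC1 and 49.0 ± 1.4 CPM in siKLF5b (adjusted p = 0.00833). It was past the adjusted p in all settings except without siNC1 replicate 3, where the adjusted p was 0.0778 over a range of 0.00369 to 0.0778. ETV4 was at 19.5 ± 3.6 against 14.8 ± 0.81 CPM, and rested on 1 control library. That library, siNC1 replicate 1, was at 23.6 CPM and the other siNC1 libraries were at 17.8 and 17.1 CPM. The log2FC of ETV4 was -0.40 (adjusted p = 0.0230) with it and -0.24 (adjusted p = 0.251) without it. It was also above 0.05 without siKLF5b replicate 2 (0.0611) or replicate 3 (0.0803), and the adjusted p ranged from 0.00119 to 0.251 over the alternatives. FGFR1, FGFR3, ETV5, SPRY2 and SPRY4 did not pass the adjusted p, with log2FC from -0.22 (SPRY4) to -0.062 (FGFR3). The 95% intervals were -0.40 to -0.023 for ETV5, -0.51 to 0.074 for SPRY4 and -0.41 to 0.23 for SPRY2.

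The 3 knockdowns of the other set were compared with each other. TP63 and SOX2 encode the lineage factors of squamous epithelium, and GRHL2 encodes a Grainyhead factor of epithelial cells. Between siTP63b and siSOX2b, 2 of 10 members were lower and 0 higher past both thresholds, beside 2.82% and 3.88% of all genes. Between siTP63b and siGRHL2a, 2 were lower and 1 was higher, beside 3.21% and 2.18%. Between siSOX2b and siGRHL2a, 0 were lower and 3 were higher, beside 2.27% and 1.05%. By the adjusted p alone, the members lower and higher were 7 and 2 in siTP63b against siSOX2b (15.4% and 16.4% of all genes), 4 and 5 in siTP63b against siGRHL2a (13.4% and 13.6%) and 0 and 6 in siSOX2b against siGRHL2a (12.7% and 11.8%). The median log2FC of the members was -0.59, 0.14 and 0.32 in that order, and that of all genes lay between -0.018 and 0.00059. As above, the shares of all genes are not matched to the members for depth. Each pair of these comparisons shares a group, so their values are given side by side.

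**Figure D2:**
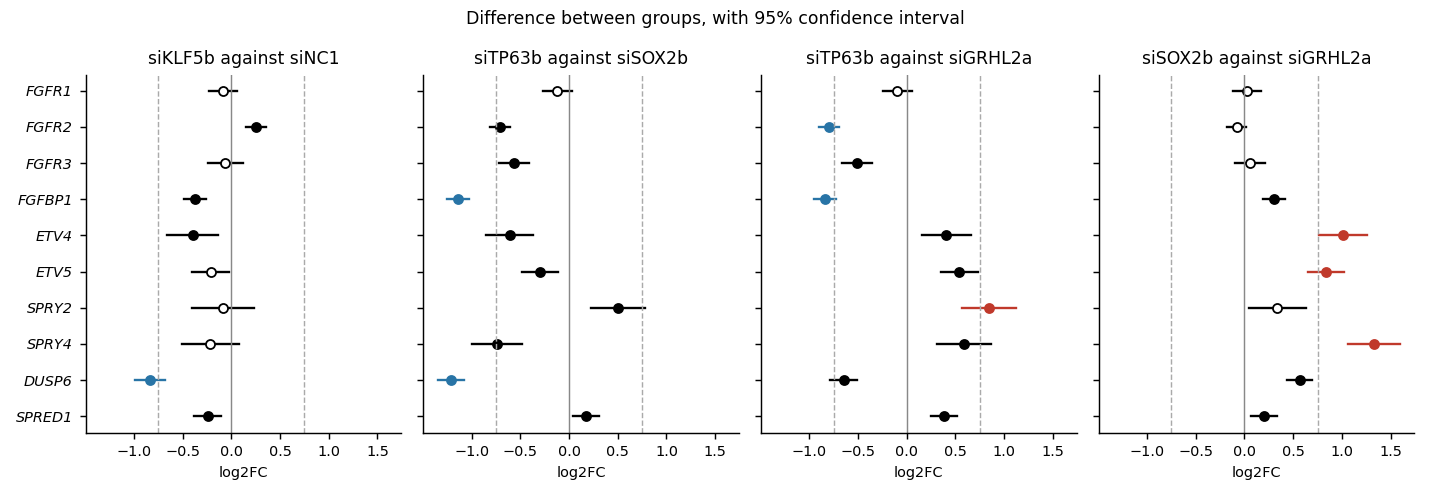
log2FC of the 10 genes (horizontal axes) with 95% confidence intervals in the 4 comparisons made within a column set. Blue and red points are lower and higher past both thresholds, filled black points passed the adjusted p alone, open points did not, and dashed lines mark ±0.75. DUSP6 was lower in siKLF5b against siNC1 and in siTP63b against siSOX2b, and ETV4, ETV5 and SPRY4 were higher in siSOX2b against siGRHL2a.

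Of the receptors, FGFR2 was lowest in siTP63b. Its levels were 83.1, 78.2 and 89.2 CPM in siTP63b, 143, 133 and 135 CPM in siSOX2b and 144, 147 and 143 CPM in siGRHL2a. Every siTP63b library lay below every library of the other groups. FGFR2 was lower in siTP63b than in siGRHL2a, with a log2FC of -0.80 (SE 0.050, adjusted p = 9.16e-14). Without siTP63b replicate 2 this log2FC was -0.74, short of the fold threshold. Against siSOX2b the log2FC was -0.71 (SE 0.050, adjusted p = 7.84e-13), short of the fold threshold, and without siTP63b replicate 3 it was -0.77 and past it. FGFR2 in siSOX2b and siGRHL2a was not separated by the test (log2FC -0.081, 95% interval -0.18 to 0.019).

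FGFR3 showed a smaller difference of the same direction. It was at 46.2, 39.2 and 51.4 CPM in siTP63b, at 63.5 to 70.7 CPM in siSOX2b and at 60.8 to 68.6 CPM in siGRHL2a. The siTP63b libraries were spread but lay below all the others of the set. The log2FC of siTP63b was -0.57 (SE 0.077) against siSOX2b and -0.51 (SE 0.077) against siGRHL2a, past the adjusted p (7.04e-07 and 4.59e-06) and short of the fold threshold. FGFR1 lay between 28.9 and 36.9 CPM in all 9 libraries and passed the adjusted p in none of the 3 comparisons, where its log2FC ranged from -0.12 to 0.023. The widest of their 95% intervals ran from -0.27 to 0.026, for siTP63b against siSOX2b. FGFR4, the fourth receptor of the family and no member, was at 5.99, 7.87 and 6.94 CPM on average in siTP63b, siSOX2b and siGRHL2a.

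FGFBP1 had the widest range in CPM among the members. It was at 339, 320 and 344 CPM in siTP63b, at 805, 661 and 749 CPM in siSOX2b and at 631, 567 and 597 CPM in siGRHL2a. The 3 groups did not overlap. FGFBP1 was lower in siTP63b than in siSOX2b (log2FC -1.14, SE 0.055, adjusted p = 1.26e-16) and in siGRHL2a (log2FC -0.84, SE 0.055, adjusted p = 2.12e-13). The mean in siNC1, of the other set, was 391.5 CPM. The difference between siSOX2b and siGRHL2a was smaller (log2FC 0.30, adjusted p = 7.65e-05).

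ETV4 and ETV5, ETS factors induced by ERK, were lowest in siGRHL2a. ETV5 was at 11.9, 10.3 and 10.2 CPM in siGRHL2a, at 15.7, 15.7 and 15.6 CPM in siTP63b and at 21.6, 18.9 and 17.2 CPM in siSOX2b. The groups did not overlap, and the siSOX2b libraries were the most spread. ETV5 was higher in siSOX2b than in siGRHL2a by a log2FC of 0.84 (SE 0.092, adjusted p = 3.13e-08). The log2FC of siTP63b was 0.54 against siGRHL2a and -0.30 against siSOX2b. The latter was past the adjusted p (0.0120) with all libraries, and without siSOX2b replicate 1 it was -0.21 with an adjusted p of 0.115, over a range of 0.00317 to 0.115.

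ETV4 was at 12.9, 14.4 and 13.5 CPM in siGRHL2a and at 25.4, 29.3 and 27.7 CPM in siSOX2b. The siTP63b libraries were at 16.3, 14.6 and 23.1 CPM, with replicate 3 apart from the others. ETV4 was higher in siSOX2b than in siGRHL2a by a log2FC of 1.02 (SE 0.12, adjusted p = 1.18e-07). In siTP63b it was lower than in siSOX2b (log2FC -0.61, SE 0.12, adjusted p = 0.000150), and past the fold threshold without siTP63b replicate 3 (log2FC -0.83). Against siGRHL2a the log2FC of siTP63b was 0.40 (adjusted p = 0.0131), and without siTP63b replicate 3 it was 0.20 (adjusted p = 0.212). Over the alternatives this adjusted p ranged from 0.000252 to 0.212, and it was 0.0545 without siGRHL2a replicate 1.

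SPRY4, a Sprouty inhibitor of receptor signalling to RAS and RAF, had the largest log2FC of the members within this set. It was at 8.65, 8.58 and 8.76 CPM in siSOX2b and at 3.25, 4.04 and 3.03 CPM in siGRHL2a. The siTP63b libraries lay between them, at 5.42, 5.44 and 4.67 CPM. SPRY4 was higher in siSOX2b than in siGRHL2a by a log2FC of 1.33 (SE 0.13, adjusted p = 3.59e-09). In siTP63b the log2FC was -0.74 against siSOX2b (adjusted p = 2.75e-05), at the edge of the fold threshold. It was past that edge without siTP63b replicate 1 or replicate 2 (-0.78 each) or siSOX2b replicate 2 (-0.75). Against siGRHL2a it was 0.59 (adjusted p = 0.00121).

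SPRY2 had another order. It was highest in siTP63b, at 9.73, 9.01 and 7.37 CPM, and was at 6.48, 6.97 and 4.78 CPM in siSOX2b and at 4.35, 5.0 and 5.2 CPM in siGRHL2a. The siSOX2b and siGRHL2a libraries overlapped, and the siTP63b libraries lay above both. SPRY2 was higher in siTP63b than in siGRHL2a (log2FC 0.84, SE 0.14, adjusted p = 1.66e-05). It was also higher than in siSOX2b, below the fold threshold (log2FC 0.51, adjusted p = 0.00455). Between siSOX2b and siGRHL2a the log2FC was 0.34 (adjusted p = 0.0807). It was 0.49 (adjusted p = 0.0133) without siSOX2b replicate 3, the lowest and shallowest siSOX2b library, and the adjusted p ranged from 0.0133 to 0.318 over the alternatives.

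DUSP6 separated all 3 knockdowns. It was at 26.0, 26.4 and 29.5 CPM in siTP63b, at 59.8, 65.7 and 64.8 CPM in siSOX2b and at 45.2, 42.4 and 40.9 CPM in siGRHL2a. DUSP6 was lower in siTP63b than in siSOX2b (log2FC -1.22, SE 0.066, adjusted p = 2.26e-15). The mean in siNC1, of the other set, was 29.8 CPM. The log2FC of siTP63b against siGRHL2a was -0.65 (adjusted p = 3.86e-09), and that of siSOX2b against siGRHL2a was 0.57 (adjusted p = 5.07e-08), both short of the fold threshold. SPRED1 differed least of the feedback inhibitors, with a mean of 44.7 CPM in siGRHL2a, 51.4 CPM in siSOX2b and 58.1 CPM in siTP63b. Its log2FC was 0.38 in siTP63b against siGRHL2a (adjusted p = 3.54e-05). The other log2FC of SPRED1, 0.18 for siTP63b against siSOX2b and 0.20 for siSOX2b against siGRHL2a, had adjusted p of 0.0381 and 0.0219. The former was above 0.05 in 5 of its 14 alternatives (0.0137 to 0.178) and the latter in 2 of 14 (0.0115 to 0.133).

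The ETV, SPRY and DUSP members and SPRED1 thus took different orders across the 3 knockdowns. DUSP6 was lowest in siTP63b, while ETV4, ETV5, SPRY4 and SPRED1 were lowest in siGRHL2a. SPRY2 was highest in siTP63b, and ETV4, ETV5, SPRY4 and DUSP6 were highest in siSOX2b. None of the groups named lowest or highest here overlapped the next group of the set, but some gaps were narrow. ETV4 reached 14.4 CPM in siGRHL2a and began at 14.6 CPM in siTP63b. SPRED1 reached 47.5 CPM in siGRHL2a and began at 48.8 CPM in siSOX2b. The lowest and highest groups were picked by the same values, and the share of all genes with such gaps was not computed, so nothing is read from the gaps.

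The counting of overlapping genes bears on 5 of the members. Of gene pairs in which one gene lies wholly inside the other, the outer gene never had fewer counts than the inner one, in 3499 pairs on opposite strands and 2189 pairs on the same strand with at least 150 counts for the inner gene. Reads in a shared stretch therefore appear under both genes, whatever their strand. ETV4 (chromosome 17, 43527844 to 43579620, minus strand, hg38) lies wholly inside the span of DHX8, an RNA helicase gene on the plus strand (43483865 to 43610338). DHX8 had 871% as many counts as ETV4, and the part of them that falls in the ETV4 span cannot be told apart from ETV4 mRNA. The counts of DHX8 in turn include those of ETV4. DHX8 was at 196 ± 9.1 CPM in siNC1, 170 ± 4.2 in siKLF5b, 155 ± 14 in siTP63b, 168 ± 10 in siSOX2b and 139 ± 6.8 in siGRHL2a (SD, n = 3). Its log2FC was -0.20 in siKLF5b against siNC1 (adjusted p = 0.00944), the same direction as that of ETV4. In siSOX2b against siGRHL2a it was 0.27 for DHX8 and 1.02 for ETV4, and these values are not independent. The part of DHX8 in the ETV4 values was not tested.

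DUSP6 (chromosome 12, 89347235 to 89352501, minus strand) shares 1487 bases with the long noncoding RNA gene ENSG00000274021 on the plus strand, 65.9% of that gene's span. ENSG00000274021 had 23.1% as many counts as DUSP6 and moved with it: log2FC -0.91 in siKLF5b against siNC1 and -1.21 in siTP63b against siSOX2b. Their shared reads cannot be told apart. The DUSP6 window printed above lies within the span of this gene. SPRY4 (chromosome 5, 142310427 to 142326455, minus strand) shares 1163 bases with SPRY4-AS1, which had 268% as many counts over a far longer span. SPRY4-AS1 did not follow SPRY4: its log2FC in siSOX2b against siGRHL2a was 0.059 (adjusted p = 0.711), beside 1.33 for SPRY4. ETV5 (chromosome 3, 186046314 to 186110318) overlaps DGKG and ETV5-AS1, which had 37.9% and 7.93% as many counts. The DGKG counts come from its whole span, of which 4651 bases (1.81%) are shared with ETV5. DGKG had a log2FC of 0.43 in siSOX2b against siGRHL2a, beside 0.84 for ETV5, at 6.68 and 4.98 CPM. ETV5-AS1, which lies wholly inside ETV5, had a log2FC of 0.73 there (adjusted p = 0.0678), at 1.2 and 0.719 CPM. FGFR1 (chromosome 8, 38400215 to 38468834) overlaps LETM2 (28.2% as many counts) and wholly contains the long noncoding RNA gene ENSG00000255201 (15.6%). The bases shared with LETM2 are 9313, or 39.9% of the LETM2 span. LETM2 had a log2FC of -0.47 in siTP63b against siSOX2b and 0.42 in siSOX2b against siGRHL2a, both past the adjusted p, where FGFR1 was at -0.12 and 0.023. ENSG00000255201 was at 8.88 CPM in siNC1 and 9.59 CPM in siKLF5b, and at 4.19 to 4.69 CPM on average in the groups of the other set, the same direction as FGFR1. Its part in the FGFR1 values was not tested. FGFR2 (chromosome 10, 121478332 to 121598458), FGFR3 (chromosome 4, 1793293 to 1808872), FGFBP1 (chromosome 4, 15935577 to 15938740), SPRY2 (chromosome 13, 80335976 to 80341126) and SPRED1 (chromosome 15, 38252836 to 38357249) overlap 0 listed genes.

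**Figure D3:**
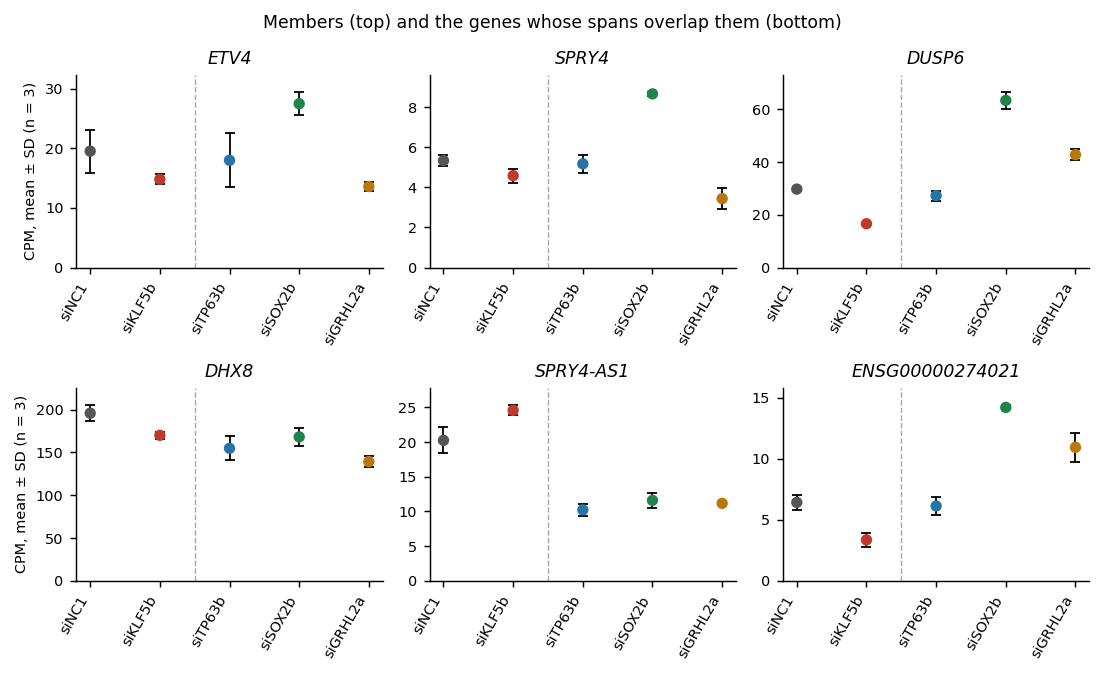
Mean CPM ± SD of 3 libraries (vertical axes, starting at 0) for ETV4, SPRY4 and DUSP6 in the top row and for the gene that overlaps each in the bottom row. The dashed line parts the 2 column sets. ENSG00000274021 takes the order of DUSP6 in the 5 groups, while DHX8 and SPRY4-AS1 are highest in siNC1 (196 CPM) and siKLF5b (24.6 CPM).

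Against siNC1, each of the 3 knockdowns of the larger set also showed members past both thresholds, but the set differs here as well as the siRNA. In siTP63b, 1 of 10 was lower and 1 higher, beside 9.24% and 11.4% of all genes. These were FGFR2 (log2FC -0.90) and SPRY2 (0.78). SPRY2 was at 0.69 without siNC1 replicate 3 and at 0.70 without siTP63b replicate 1, both short of the threshold. In siSOX2b, 0 were lower and 3 higher, beside 10.1% and 11.6%: FGFR3 (1.16), FGFBP1 (0.91) and DUSP6 (1.09). In siGRHL2a, 1 was lower and 1 higher, beside 7.99% and 11.7%: ETV5 (-1.0) and FGFR3 (1.1). By the adjusted p alone, the members lower and higher were 4 and 2 in siTP63b (26.2% and 28% of all genes), 3 and 5 in siSOX2b (27.3% and 28.1%) and 5 and 3 in siGRHL2a (25.8% and 28.2%). SPRY4 was at -0.63 there, and at -0.76, past the threshold, without siGRHL2a replicate 2. FGFR1 was lower in all 9 libraries of the larger set (28.9 to 36.9 CPM) than in the 6 others (44.8 to 52.7 CPM), and FGFR3 was higher (39.2 to 70.7 against 27.3 to 33.8 CPM). For these a set difference and a common effect of the knockdowns cannot be told apart. For FGFR2 in siTP63b against siNC1, set and knockdown likewise cannot be told apart. Within its own set FGFR2 was lowest in siTP63b, which is a comparison with other knockdowns and not with a control.

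The rest of the pathway was read from 5 lists of other genes, 78 in all, of which 60 were tested. Like the members, these lists were chosen with earlier results of these data known. A share above that of all genes is therefore not read as an enrichment. The list of FGF genes follows the gene family: of those tested, FGF11, FGF12, FGF13 and FGF14 encode intracellular FGF homologous factors, which are not secreted ligands. In siKLF5b against siNC1, 5 of the 60 were lower and 1 higher past both thresholds, beside 1.37% and 1.89% of all genes. The median log2FC was -0.13 over the 60 genes and -0.0097 over all genes. The lower genes were feedback inhibitors (3 of 12) and ERK-induced genes (2 of 10 tested). DUSP4, a nuclear ERK phosphatase, fell from 16.1 ± 1.3 to 7.26 ± 0.41 CPM (SD, n = 3; log2FC -1.14, SE 0.10, adjusted p = 2.93e-10). DUSP5, another nuclear ERK phosphatase, fell from 8.23 ± 0.90 to 3.68 ± 0.69 CPM (log2FC -1.17, SE 0.16, adjusted p = 1.28e-06). CCND1, which encodes cyclin D1 of the G1 phase, fell by 1.5 on the log2 scale, from 1167 to 413 CPM (adjusted p = 1.70e-21). FOSL1, an AP-1 subunit, was at 5.43 against 2.99 CPM (log2FC -0.84, adjusted p = 0.000249). DUSP9 was the third feedback inhibitor called, at 0.958 against 0.483 CPM with an adjusted p of 0.0485, and is named after its values were seen. FLRT3, a membrane protein that binds FGF receptors, rose from 8.76 to 17.1 CPM (log2FC 0.97, adjusted p = 7.89e-07). None of the 8 FGF genes or 21 genes of the relay from receptor to ERK that were tested passed both thresholds here. By the adjusted p alone, 7 of the 21 relay genes were lower and 2 higher, beside 12.9% and 10.3% of all genes. The numbers lower and higher were 5 and 0 of the 12 feedback inhibitors and 6 and 0 of the 10 ERK-induced genes tested. They were 0 and 1 of the 8 FGF genes and 1 and 2 of the 9 receptor, co-receptor and binding protein genes.

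Within the larger set, siTP63b against siSOX2b had 3 of these 60 genes lower and 3 higher, beside 2.82% and 3.88% of all genes. The counts were 3 and 3 in siTP63b against siGRHL2a (3.21% and 2.18% of all genes) and 3 and 4 in siSOX2b against siGRHL2a (2.27% and 1.05%). With so few genes called, nothing is read from these counts. NRAS, one of the RAS genes, was at 48.2 ± 1.2 CPM in siSOX2b, beside 97.5 ± 3.5 CPM in siTP63b and 96.3 ± 1.3 CPM in siGRHL2a, so it was lower in siSOX2b than in both (log2FC 1.02 for siTP63b against siSOX2b and -1.0 for siSOX2b against siGRHL2a). SDC1, a heparan sulfate proteoglycan, was also lowest in siSOX2b, at 209 CPM, beside 447 CPM in siTP63b and 501 CPM in siGRHL2a. SPRY1 was at 4.41 CPM in siTP63b, above 2.19 CPM in siSOX2b (log2FC 0.98) and 2.38 CPM in siGRHL2a (log2FC 0.89), as SPRY2 was. ERRFI1, an inhibitor of the EGF receptor, was lowest in siGRHL2a (23.8 CPM, beside 60.2 in siTP63b and 49.5 in siSOX2b), and so was FOSL1 (12.8 CPM, beside 23.4 and 28). FLRT2 averaged 37.4 CPM in siTP63b, beside 72.7 CPM in siGRHL2a (log2FC -0.96) and 62.7 CPM in siSOX2b. FLRT3 averaged 4.79 CPM in siTP63b and 8.41 CPM in siGRHL2a (log2FC -0.81). In siSOX2b FLRT3 was at 5.04 CPM, near its level in siTP63b. The other genes past the thresholds had few counts and are named after their values were seen. DUSP1 averaged 3.56 CPM in siSOX2b against 1.69 CPM in siTP63b and 1.96 CPM in siGRHL2a. EGR1 was at 0.826 CPM in siTP63b against 1.61 and 1.44 CPM. FGF9 (0.0598 to 0.334 CPM) and FGF13 (1.33 to 2.36 CPM) were the genes of the FGF list.

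**Figure D4:**
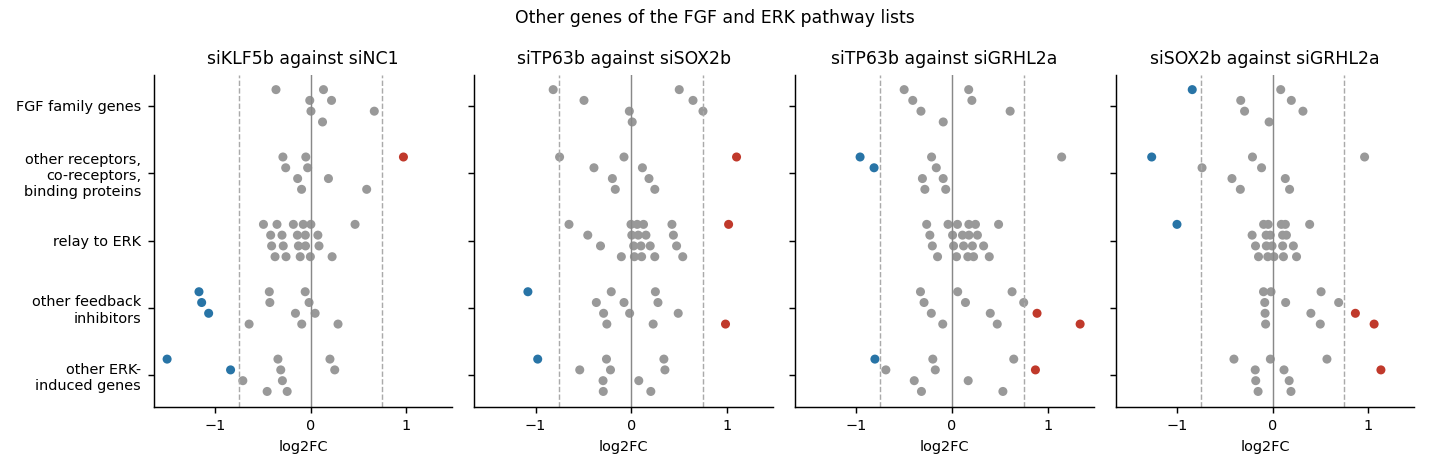
log2FC (horizontal axes) of 59 of the 60 tested genes of the 5 pathway lists, 1 row of points per list, in the 4 comparisons made within a column set; FGF9, which had few counts, is left out. Blue and red points are lower and higher past both thresholds and dashed lines mark ±0.75. In siKLF5b against siNC1 the 5 lower genes are feedback inhibitors or ERK-induced genes, and FLRT3 is the only higher one.

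Genes whose pattern was most like that of 4 members were found by Pearson's r of log2 CPM over the 15 libraries, after the mean of each column set was subtracted, among 15346 genes. Libraries of a group share their siRNA, so r mostly follows the group means and is a description. MBTPS1 (r = 0.986), HOMER1 (0.982) and ENSG00000250167 (0.981) were most like FGFR2. PYGB (0.986) and ENSG00000286458 (0.981) were among the genes most like FGFBP1. For DUSP6 they were HEG1 (0.975), ZNF367 (0.972) and KIF5C (0.971). For ETV4, whose libraries were more spread, RRP9 (0.942), VPS9D1-AS1 (0.938) and UBE2M (0.930) came first. None of these is among the pathway lists.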

How the data were processed

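RNA-seq was analysed in 15 libraries of HCC95 cells. The authors selected polyadenylated RNA, primed it with random hexamers, aligned the read pairs with HISAT2 2.2.1 to hg38 and counted uniquely aligned reads over Gencode release 40 genes with featureCounts 2.0.1. They deposited raw counts, over the whole span of each gene. Use of strand, and whether reads or fragments were counted, is not given in the sources used here. All 15 columns were matched to libraries by name. Exon lengths came from Gencode release 44.

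TMM factors, the filterByExpr filter and one quasi-likelihood fit of all libraries were used (R 4.3.3, edgeR 4.0.16, limma 3.58.1), as an alternative to the authors' DESeq2, with their thresholds. Adjustment of p (Benjamini-Hochberg) covered 25108 genes. CPM is TMM-scaled. The steps were tested on simulated counts. The members and lists were chosen with earlier results of these data known. Genes named were the members, the targeted genes, genes overlapping a member with at least 5% of its counts, up to 5 list genes per comparison with the smallest adjusted p and a mean of at least 100 counts, and the 3 genes most like 4 members. A gene chosen by this rule is not reported here. Alternatives were RLE and upper-quartile factors, no filter, at least 10 counts per library, a replicate block, only the 6 libraries compared, DESeq2 1.42.0, no log2FC threshold or one of 1, halved counts in the 9 libraries rich in even values, and each library left out.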

Additional observations from a re-analysis of the deposited data

How the results depend on the processing

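The counts of members past the thresholds, 1, 2, 3, 3, 2, 3 and 2 for siKLF5b against siNC1, siTP63b against siSOX2b, siTP63b against siGRHL2a, siSOX2b against siGRHL2a, and siTP63b, siSOX2b and siGRHL2a against siNC1, depended most on the fold threshold. With no log2FC threshold they were 5, 9, 9, 6, 6, 8 and 8, and the share of all genes past the adjusted p was also far larger, from 10.3% to 28.2% in each direction. With an absolute log2FC above 1 they were 0 in siKLF5b against siNC1, siTP63b against siGRHL2a and siTP63b against siNC1, 1 in siGRHL2a against siNC1 and 2 in each of the other comparisons. In siKLF5b against siNC1, 5 members had an adjusted p below 0.05 by edgeR. With each library left out, the counts ranged from 2 to 4 in siTP63b against siSOX2b, where siTP63b replicate 3 gave the 4, and from 1 to 2 in siTP63b against siNC1, where upper-quartile factors also gave 1. Numbers did not pair the libraries (correlation of deviations from -0.045 to 0.049), and with the replicate block the counts were 1, 2, 3, 3, 2, 3 and 2. Values near 0 changed sign. SPRED1 in siTP63b against siNC1 (0.0038) was -0.011 with RLE factors, -0.029 with upper-quartile factors, -0.011 with DESeq2 and -0.00089 with only the 6 libraries compared, and from -0.047 to 0.043 with each library left out. The leave-one-out ranges that crossed 0 were also -0.14 to 0.024 for FGFR3 in siKLF5b against siNC1, -0.024 to 0.088 for FGFR1 in siSOX2b against siGRHL2a, -0.33 to 0.028 for ETV4 and -0.092 to 0.039 for SPRY4 in siTP63b against siNC1, and -0.15 to 0.013 for SPRY2 in siGRHL2a against siNC1. None of these had been past the adjusted p. With 3 libraries per group and 70 to 298 deposited counts of SPRY2 and SPRY4, their differences are the least precise.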
